A study of Sus scrofa with 12 samples.

Results

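The transcripts described here are the 200 most abundant of 300 bases or less in testis RNA of the pig breeds Duroc and Large white. They were selected on measured values: among the 2712 transcripts of 300 bases or less, out of 63022 in all, the 200 with the highest mean TPM over the 6 RNA libraries were taken. TPM, the unit of the deposited abundances, is a relative abundance that divides reads by a transcript's effective length and scales the result to the same total in every library. The breed of a library played no part in that choice, but the members' high TPM is its result and is given as a description.

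The libraries were made from ribosomal RNA-depleted total RNA of testis from male pigs 12 months old, 3 libraries of Western Duroc and 3 of Large white pigs, sequenced from both ends of each fragment. The series' design also names a Chinese indigenous breed, Diannan small-ear, which was not analysed here. Nothing in the labels states which libraries share an animal, so p-values reflect only how much libraries of a breed differ, and that may be technical. The testis label could not be checked against marker genes, and the members are given by identifier and length, because the tables used here pair none of the transcript identifiers with a symbol.

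RNA that keeps its non-polyadenylated part holds many short structured RNAs beside messenger RNA, among them the small nuclear RNAs of the spliceosome, the small nucleolar RNAs that guide modification of ribosomal RNA, transfer RNAs and precursors of microRNAs. Coding transcripts of this length are few, or are incomplete models of longer genes. A short RNA yields few fragments in a library made for long ones. Quantification tools correct for this by an effective length, an estimate of the number of positions on the transcript at which a fragment could start. The fewer such positions, the more TPM each read is worth. In the RefSeq table of the assembly Sscrofa11.1, 907 genes span 300 bases or less, of which 532 are transfer RNAs, 315 microRNAs, 47 pseudogenes and 7 protein-coding genes. These counts are of RefSeq genes by span, not of the 2712 transcripts, and do not give the make-up of those transcripts. Which of the 200 belong to any of these classes was not tested.

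A large share of all TPM rested on few reads. Of all TPM, the 200 transcripts held 25.8%, 26.7% and 25.8% in the Duroc libraries, numbered 1 to 3, and for Large white, numbered likewise, 23.0%, 27.8% and 25.6%. Of the estimated reads they held 0.708%, 0.750% and 0.694% in Duroc but 0.584%, 0.735% and 0.693% in Large white. The TPM share was thus 35.5 to 39.4 times the read share in the 6 libraries. Large white library 1 was the lowest on both scales, and the other 5 lay close together. With reads divided by full length in place of effective length, the same transcripts held 7.76% to 9.92% of the rescaled total, less than with effective length and more than by reads.

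**Figure D1:**
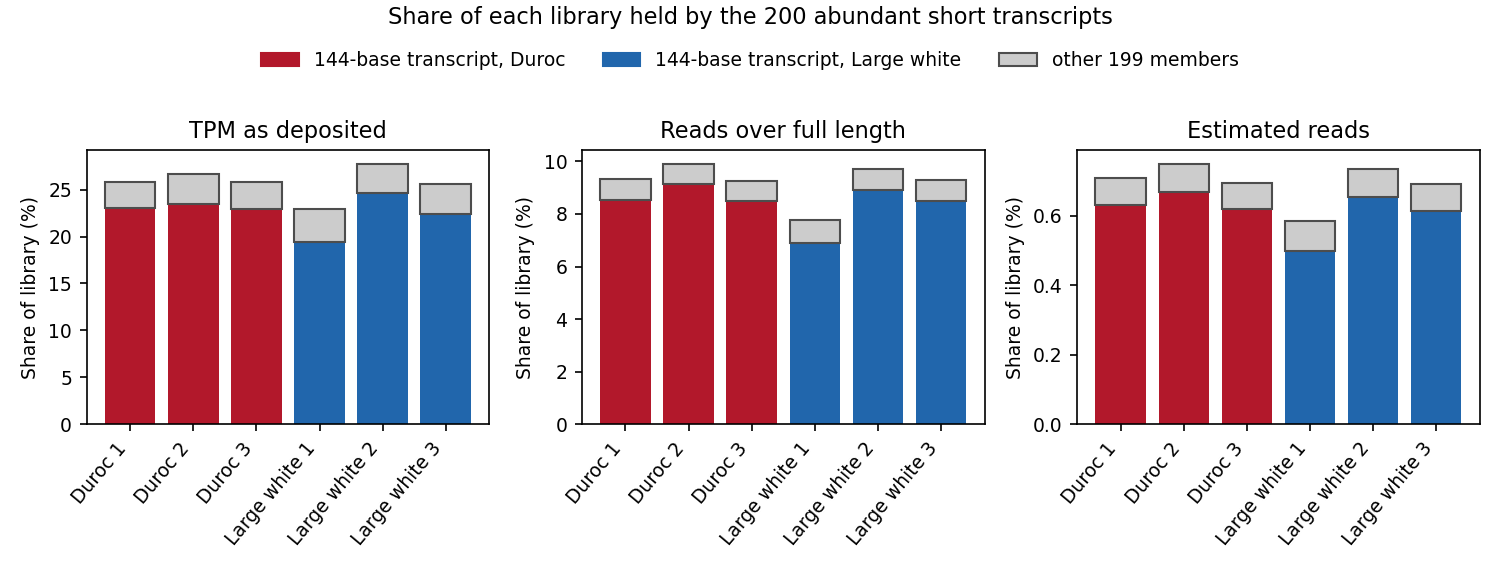
Share of each library (%) held by the 200 transcripts, as TPM, as reads over full length and as estimated reads, with 1 bar per library and separate vertical scales. The coloured part is the 144-base transcript and the grey part the other 199 members; Large white library 1 has the lowest bar in each panel.

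Most of this was a single RNA. ENSSSCT00000029974.3, with 144 bases, had 230737, 234973 and 229834 TPM in Duroc and 194466, 246700 and 223542 TPM in Large white. Its estimated reads were 152054, 132634 and 110751 for Duroc, against 127347, 150337 and 126202 for Large white. It was first of all transcripts by mean TPM, by mean reads and by reads over length, and first or second by reads in each library. Its mean TPM was 12.5 times that of the next transcript of any length, which has 414 bases and is not a member. Within the 200 it took 84.6% to 89.3% of the TPM and 85.5% to 89.1% of the reads. In TPM the Duroc libraries lay within the range of the Large white libraries. In reads, which also vary with the size of the library, they spread beyond it on both sides. As a share of a library's reads it had 0.631%, 0.668% and 0.618% in Duroc, against 0.499%, 0.654% and 0.614% in Large white. For this transcript edgeR gave a log2 fold change (Duroc over Large white) of 0.03 (SE 0.27, adjusted p = 0.962), which was below 0 in 6 of the alternatives. Taking it out of the library total would raise the TPM of every other transcript 1.24-fold in Large white library 1 and 1.29- to 1.33-fold in the other 5. Of the 8 transcripts of 144 bases in the files 1 other is a member, at rank 29, and had 83.3 to 284 TPM.

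The other 199 members together held 2.77% to 3.54% of TPM and 0.0763% to 0.0847% of reads. Their abundances fell off steeply: ranks 2 to 10 took 54.6% to 58.3% of the TPM of the 199, and ranks 2 to 50 took 89.9% to 93.0%. Of the 200, 8 reached a mean of 1000 TPM, 38 reached 100 TPM and 52 stayed under 10 TPM, with a median of 16.6 TPM. By reads, 4 had a mean of 1000 or more, 30 had 100 or more and 92 had under 10, with a median of 10.8 reads. Many of these abundant transcripts by TPM therefore rested on a handful of reads.

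ENSSSCT00000030220.3 (189 bases), number 2 by both measures, had 5996, 7139 and 6250 TPM in Duroc, from 2038 to 2749 reads, and 8243, 6850 and 7821 TPM in Large white, from 2955 to 3608 reads. ENSSSCT00000071049.1 (177 bases) had 544, 2746 and 2136 TPM in Duroc and 2768, 2149 and 2296 in Large white. ENSSSCT00000079581.1 (229 bases) had 1602, 1812 and 1523 TPM in Duroc and 2687, 1935 and 1675 in Large white. Duroc library 1 was low for the 177-base transcript, and for these 3 the breeds overlapped (edgeR adjusted p = 0.573, 0.726 and 0.462). ENSSSCT00000058495.2 (245 bases) had 931, 1590 and 992 TPM in Duroc and 1888, 1603 and 1563 in Large white, where Duroc libraries 1 and 3 were below all others (edgeR adjusted p = 0.409). ENSSSCT00000019681.2 (297 bases), number 3 by reads and number 8 by TPM, was highest in those libraries, with 2041, 491 and 1881 TPM in Duroc and 586, 971 and 516 in Large white. Its log2 fold change of 0.91 (SE 0.52) did not pass (edgeR adjusted p = 0.414).

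**Figure D2:**
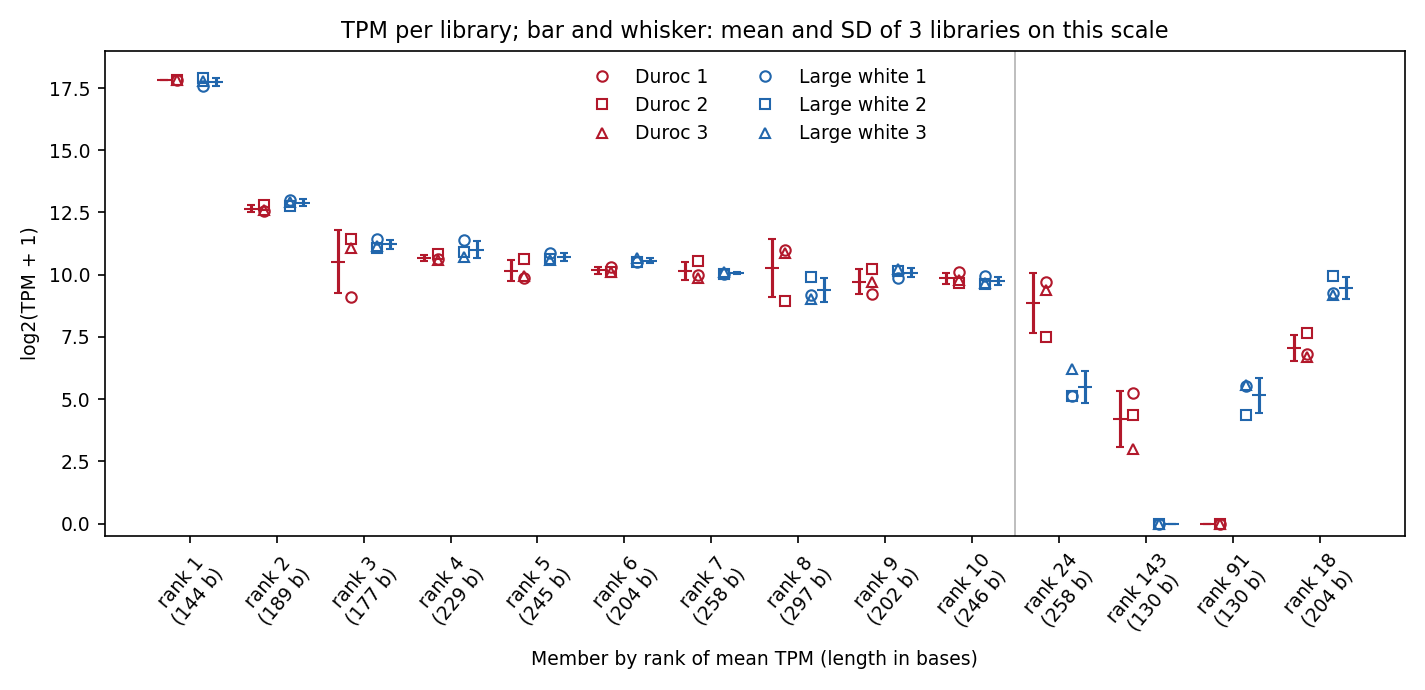
Log2(TPM + 1) in each library for the 10 members of highest mean TPM and, right of the line, the 2 of smallest edgeR p in each direction, with the mean and SD of 3 libraries per breed beside the points. Ranks 143 and 91, both of 130 bases, sit at 0 in Large white and in Duroc respectively.

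The next members, given by rank and picked after their values were seen, differed in how far their libraries spread. At rank 6, a 204-base transcript had 1283, 1092 and 1094 TPM in Duroc against 1470, 1453 and 1635 in Large white, with no overlap and a log2 fold change of -0.46 (SE 0.23, edgeR adjusted p = 0.384). At rank 10, a 246-base transcript had 788 to 1094 TPM in all 6 libraries and a log2 fold change of 0.01. Others turned on Duroc library 1: the 270-base transcript of rank 11 had 122 TPM there and 824 to 1529 in the remaining libraries. Rank 13 (195 bases) had 129, 971 and 448 TPM in Duroc against 1271, 1074 and 931 in Large white, and here too Duroc libraries 1 and 3 were lowest. The reverse held for rank 17 (204 bases), with 1103, 164 and 601 TPM in Duroc against 365, 438 and 212 in Large white. It held as well for the 64-base transcript of rank 21, which had 1355, 80.8 and 337 TPM in Duroc against 183, 159 and 105 in Large white. In rank 21 the 1355 TPM of Duroc library 1 came from 802 reads, and its log2 fold change of 1.87 (SE 0.85) did not pass (edgeR adjusted p = 0.369). The 78-base transcript of rank 19 had 388, 315 and 301 TPM in Duroc, all below the 618, 468 and 453 of Large white (edgeR adjusted p = 0.369).

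The weight of a read followed the effective length, and this did not rise evenly with length. Within a library, transcripts of the same length had the same effective length to within 0.1%, except at 105 and 107 bases, over the 232 lengths up to 300 bases. From 60 bases it rose, with small dips on the way, to a peak of 37.2 to 40.8 bases at a length of 141 bases in all 6 libraries. It then dropped to a minimum of 17.8 to 20.2 bases at lengths of 164 to 168 bases, and climbed again to 61.9 to 68.4 bases at 300 bases. A transcript of 141 bases thus had 2.02 to 2.16 times the effective length of one at that minimum, and the same number of reads gave it that much less TPM. The dominant 144-base transcript lies on the steep side of the peak, with an effective length of 31.4 to 34.2 bases.

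**Figure D3:**
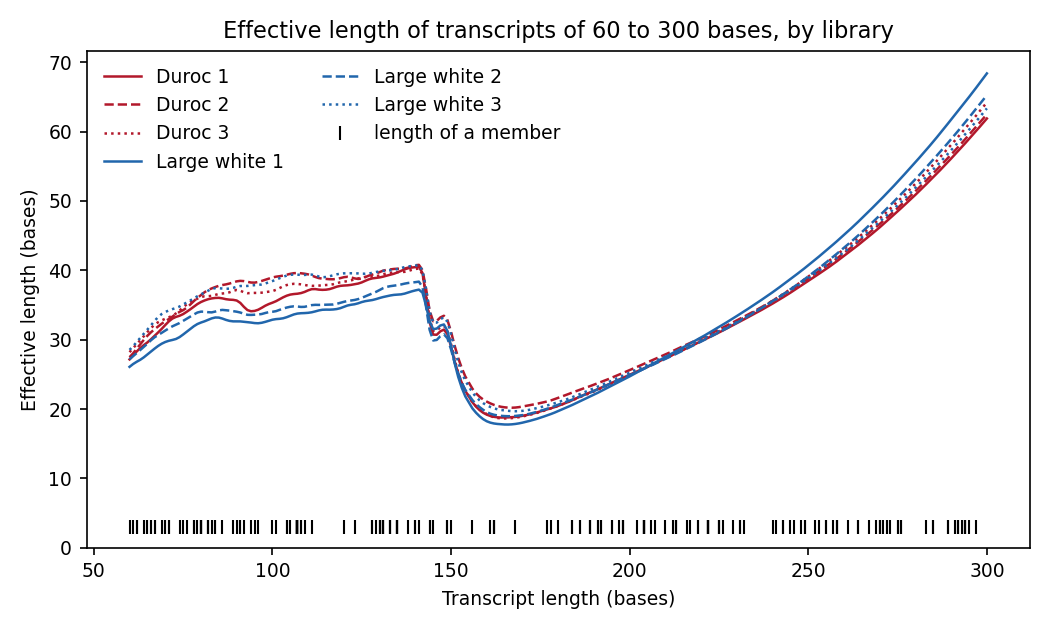
Effective length against transcript length, both in bases, with 1 line per library (red Duroc, blue Large white) and ticks for the lengths of the members. All lines peak at 141 bases with 37.2 to 40.8 bases and reach a minimum of 17.8 to 20.2 bases between 164 and 168 bases.

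Per member, the TPM share was 19.6 to 64.1 times the read share. The lowest was the 297-base ENSSSCT00000019681.2, and the highest ENSSSCT00000075929.1 (168 bases), whose effective length was 0.113 of its length and which had 5.99 to 52.6 TPM from 2 to 17.2 reads. Members of 151 to 200 bases had ratios of 49.6 to 64.1, those of 251 to 300 bases 19.6 to 30.5, and those of up to 100 bases 33.9 to 44.5. The share of a transcript's TPM equals its share of reads at an effective length of 1186 to 1272 bases, depending on the library. For comparison, all transcripts of 1001 to 2000 bases had a ratio of 0.958 to 1.02, and those of over 5000 bases 0.191 to 0.205. Relative to length, the 67-base ENSSSCT00000021378.2 had the highest effective length of the members, at 0.463 of its length.

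The ranks by TPM and by reads differed most for ENSSSCT00000021183.3 (161 bases), which was number 89 by TPM and 137 by reads, and for ENSSSCT00000078623.1 (289 bases), number 176 by TPM and 130 by reads. The 161-base transcript had 1 to 28 reads, and the 28 reads of Large white library 2 gave 74.7 TPM against 2.91 to 17.8 TPM in the other libraries. The 289-base transcript had 2 to 13 reads and 1.78 to 13.8 TPM. Of the 200 members, 190 were also among the 200 short transcripts with the most reads. Set among transcripts of all lengths the scales parted further: 35 members were in the top 1000 by TPM, 17 by reads over length and 1 by reads.

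**Figure D4:**
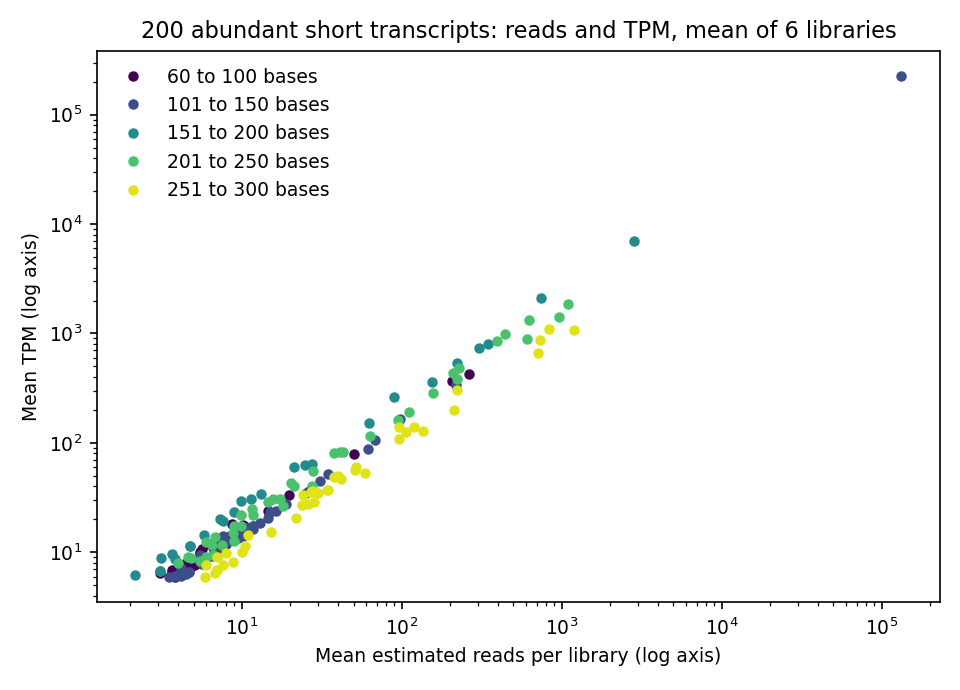
Mean TPM against mean estimated reads over 6 libraries for the 200 transcripts, both axes logarithmic, coloured by length class. The 144-base transcript stands alone at the upper right, and members of 251 to 300 bases lie lowest for their reads.

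A single read was worth 0.752 to 3.65 TPM on a member, against 0.0131 to 0.0182 TPM at the median effective length of transcripts over 2000 bases. The floor used here for a transcript without reads, 3 reads, comes to 2.25 to 10.9 TPM. The limit of the 200 lies inside that range. The last members were ENSSSCT00000026972.2 (149 bases, mean 5.90 TPM from 3.50 reads) and ENSSSCT00000019928.2 (82 bases, 5.90 TPM from 3.83 reads). The first outside were ENSSSCT00000077267.1 (158 bases, 5.88 TPM from 2.16 reads) and ENSSSCT00000063856.2 (228 bases, 5.84 TPM from 3.61 reads). The gap at the limit was smaller than what 1 further read in a single library adds to a mean. Of the members, 43 had no read in at least 1 library, and 21 had under 10 reads in every library. Of the 2512 short transcripts outside, 736 had a read in any library, and they held 0.0664% to 0.137% of TPM. Without a read in any library were 65.5% of all transcripts of 300 bases or less and 10.5% of the longer ones.

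Not all 200 are separate measurements. Reads that match several transcripts are divided among them, which gives fractions of reads. In 138 members (69.0%) the estimates were whole numbers in every library, to within 0.001 read, as in 14.0% of the 24227 transcripts tested. The other 62 had a fraction somewhere. In 4 sets, with 14 members in all, transcripts of equal length had the same reads in every library to within 0.01 read, so that the 200 hold at most 190 separate measurements. The largest set had 8 members of 107 bases at ranks 100 to 107. Their summed reads were 0, 117 and 43.2 for Duroc, against 137, 129 and 97.4 for Large white. In Duroc library 1, where the set had 0 reads, a further 107-base member, at rank 77, had 48. It equalled the members of the set in the other 5 libraries, and whether it shares sequence with them was not tested. Another, at rank 131, equalled them in all but Large white library 1; both were singled out after their values were seen. The files list 353 transcripts of 107 bases, of which 12 are members.

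The members cover 112 lengths from 60 to 297 bases. They made up 5.67% of the listed transcripts of up to 100 bases, 3.93% of those of 101 to 150, 12.1% of those of 151 to 200, 17.2% of those of 201 to 250 and 17.6% of those of 251 to 300 bases. Lengths divisible by 3, as in a model that holds only coding sequence, made up 25.6% and 34.0% of the members in the first and second of these classes. In the 3 longer classes they made up 73.1%, 75.6% and 60.0%. Among all listed transcripts of the same classes the values were 31.5%, 26.1%, 47.7%, 77.4% and 74.0%.

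Between the breeds, the summed shares overlapped. The TPM share averaged 26.1 ± 0.47% over the Duroc libraries against 25.4 ± 2.40% over Large white (SD, n = 3 per breed; exact two-sided permutation p = 0.7). The read share was 0.717 ± 0.029% and 0.670 ± 0.078% (exact permutation p = 0.4). For the 199 without the 144-base transcript the TPM share was 2.93 ± 0.20% and 3.28 ± 0.23% (exact permutation p = 0.2). With 3 libraries against 3 the smallest possible p is 0.1, and over the 8 such tests each adjusted p was 0.7. The direction of the TPM share turned on Large white library 1, without which the difference, Duroc minus Large white, was -0.556 percentage points against 0.671 with it.

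Effective lengths differed somewhat between libraries, and the breeds overlapped. The highest and lowest library differed 1.02- to 1.19-fold for a member, with a median of 1.10-fold. No member had effective lengths that separated the breeds. The mean was higher in Duroc for 134 members and lower for 66, and its log2 ratio ran from -0.06 to 0.09. The median over members of effective length over length averaged 0.199 ± 0.0035 over the Duroc libraries against 0.207 ± 0.0073 over Large white (SD, n = 3 per breed; exact permutation p = 0.2). Its difference, Duroc minus Large white, turned positive for the 400 highest transcripts (0.00325), at a limit of 200 bases (0.0198) and weighted by reads (0.00529). At 141 bases, Large white libraries 1 and 2 had the shortest effective lengths (37.2 and 38.4 bases against 40.3 to 40.8), and at 300 bases Large white library 1 had the longest. Going from read share to TPM moved the log2 ratio of the breeds' means by -0.20 to 0.04 over the 197 members with reads in both, with a median of -0.05. The sign changed in 3 of 200 members, where the log2 ratio was at most 0.053 in size.

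No single member passed the test between breeds. By edgeR's quasi-likelihood test on the reads of 24227 transcripts, 0 of the 200 members passed an adjusted p of 0.05, against 9 or 0.0371% of all tested, and the smallest adjusted p of a member was 0.309. All 200 met the filter of at least 1 TPM in 3 libraries, 3 of them through the libraries of a single breed. Before adjustment, 25 members (14 higher in Duroc, 11 lower) lay under 0.05, close to the 13.8% of all tested. The 25 include the 3 that met the filter through a single breed. They also include 2 transcripts of 191 bases with equal reads, which are 1 measurement. DESeq2 called 5 members, 1 higher and 4 lower in Duroc, against 1.77% of all tested, and limma on log2(TPM + 1) called 1, against 0.0826%. The limma call, which is also among the DESeq2 calls, was ENSSSCT00000021123.3 (130 bases), which met the filter only through Large white and so is not counted as support. The median log2 fold change was -0.12 over the members and 0.07 over all tested, with 94 members above 0 and 106 below; the sign of the members' median turned with the list, to 0.025 for the 400 highest and 0.21 for the 200 highest of up to 200 bases. In bulk tissue such as this, fewer cells of a type and less RNA per cell cannot be told apart.

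**Figure D5:**
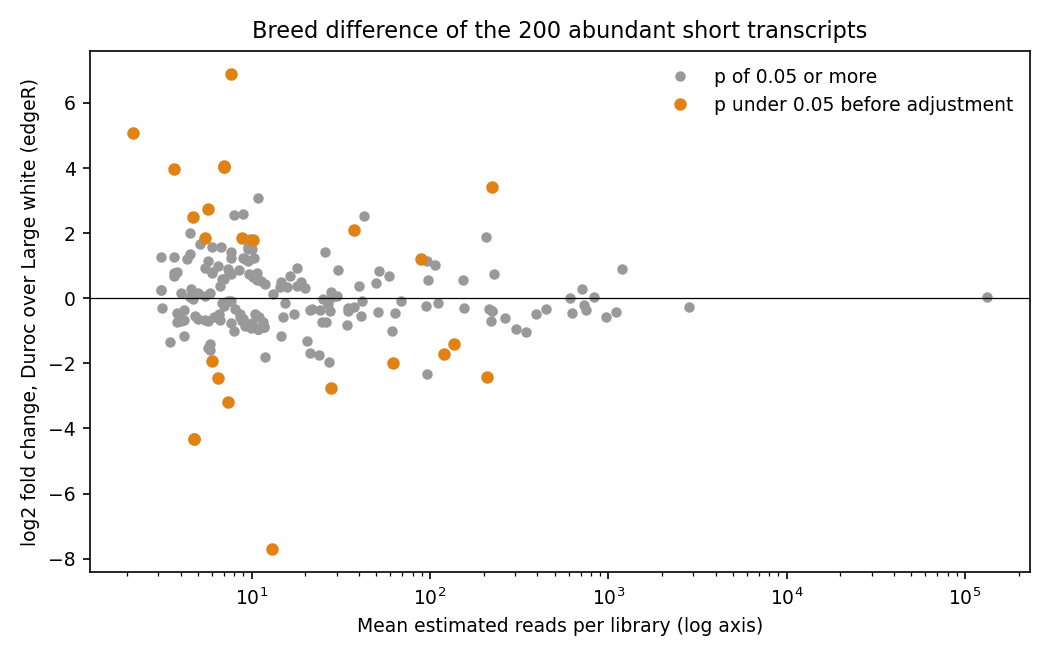
Log2 fold change of Duroc over Large white by edgeR against mean estimated reads per library (log axis) for the 200 transcripts, with the 25 of unadjusted p under 0.05 in orange. The points spread most widely at the left, where reads are few; the fitted values of the 3 members without a read in 1 breed are no measure of size.

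Of the members with a positive fold change, ENSSSCT00000046003.2 (258 bases) had the smallest p. It had 833, 179 and 665 TPM in Duroc against 33.8, 34.0 and 73.8 in Large white, so that every Duroc library lay above every Large white library. The log2 fold change was 3.42 (SE 0.63), with an edgeR adjusted p of 0.309 and a DESeq2 adjusted p of 3.26e-05. ENSSSCT00000024114.2 (204 bases) lay the other way, with 113, 200 and 104 TPM in Duroc against 621, 999.6 and 574 in Large white, again without overlap. The log2 fold change was -2.43 (SE 0.47), with an edgeR adjusted p of 0.360 and a DESeq2 adjusted p of 0.000454. Both had fractions of reads. The remaining DESeq2 calls were the 130-base transcript absent from Duroc, described next, and the members of ranks 31 (189 bases) and 33 (269 bases), given here after their values were seen. Rank 31 averaged 61.1 ± 16.0 TPM over Duroc, 242 ± 52.2 over Large white, and rank 33 had 67.4 ± 19.5 against 209 ± 53.9 (SD, n = 3 per breed), with DESeq2 adjusted p-values of 0.0143 and 0.0298.

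There were 3 members with reads in a single breed. ENSSSCT00000021123.3 had no read in Duroc and 33, 14 and 31 reads in Large white, or 45.7, 19.4 and 46.9 TPM. With the floor of 3 reads per library its mean was at least 8.24-fold lower in Duroc. ENSSSCT00000021446.3 mirrored it, with 29, 13 and 4 reads in Duroc (36.7, 19.8 and 6.97 TPM) and none in Large white. Its mean was at least 4.94-fold higher in Duroc, but Duroc library 3 lay near the floor of 4.15 to 4.54 TPM. Both transcripts have 130 bases, a length that 22 transcripts in the files share and 3 members have. Since each is absent where the other was read, the pair together had reads in every library, 4 to 33 of them. Neither passed (edgeR adjusted p = 0.309 and 0.360), and whether they share sequence was not tested. The last, of 162 bases, had 9, 1 and 3 reads in Duroc and none in Large white. Its mean was at least 1.47-fold higher in Duroc, where 1 and 3 reads do not exceed the floor.

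In 16 members every Duroc library had a higher TPM than every Large white library, against 8.4% of all tested, and in 25 a lower one, against 9.66%. On the scale of read shares the counts were 17 and 22, against 9.18% and 9.0% of all tested. On both scales the counts include the 3 members read in a single breed, whose lack of overlap followed from having no read in the other. By length, 31 of the 43 members of up to 100 bases had a positive log2 fold change, with a median of 0.77. Negative ones were found in 17 of the 26 members of 151 to 200 bases and 27 of the 41 of 201 to 250 bases. The remaining classes were closer to even. Negative were 28 of the 50 members of 101 to 150 bases (median -0.17) and 22 of the 40 of 251 to 300 bases (median -0.14). Of all transcripts tested, 53.2% had a positive log2 fold change. Reads were few in the classes of up to 100, 151 to 200 and 201 to 250 bases, with medians of 7.33, 10.7 and 18 mean reads. Single libraries and members weighed on these classes. The members of up to 100 bases held 0.272% of TPM in Duroc library 1 against 0.0784% and 0.140% in the other Duroc libraries and 0.101% to 0.129% in Large white. Without the 64-base transcript of rank 21 the share in Duroc library 1 was 0.136%, against 0.0703% and 0.106% in Duroc and 0.0886% to 0.111% in Large white. Members of 151 to 200 bases held 0.872% in Duroc library 1, against 1.33% and 1.09% in the other Duroc libraries and 1.25% to 1.50% in Large white. For 201 to 250 bases Duroc libraries 1 and 3 were the lowest, with 0.848% and 0.826%, below the 1.04% of Duroc library 2 and the 1.06% to 1.23% of Large white.

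Duroc libraries 1 and 3 stood apart among the members, as they do over all transcripts. With 1 added to each TPM, 13 to 17 of the 200 differed by more than 4-fold between any pair of Large white libraries. Set against Large white libraries, Duroc library 1 had 70 to 77 such members, library 3 had 38 to 40, and library 2 had 24 to 34. That is 35.0% to 38.5% of the members for Duroc library 1, against 9.39% to 10.3% of all tested. Between Large white libraries the share was 6.5% to 8.5% of the members, against 0.850% to 1.11% of all tested. Set against Large white, Duroc library 2 had 12% to 17% of the members, against 1.35% to 1.56% of all tested. Duroc library 3 had 19% to 20%, against 4.26% to 4.49%. A higher share among the members was thus not particular to Duroc library 1, and its cause was not tested. Across the members, Pearson's r of log2(TPM + 1) was 0.906 to 0.919 between Large white libraries and 0.595 to 0.633 between Duroc library 1 and these. These are descriptions over transcripts that share libraries. Without Duroc library 2 edgeR called 35 of 198 members, 17 higher and 18 lower in Duroc, against 35.7% of all tested. Without Duroc libraries 1 and 3, an alternative chosen after the data were seen in which Large white alone gave the spread, it called 0 of 195 members against 0.318% of all tested, and 24 members lay under an unadjusted p of 0.05, against 10.7%.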

How the data were processed

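Per the submitters' processing notes, STAR 2.7.10a, Salmon 1.9.0 and Bowtie 1.3.1 were used with the build susScr11. The role of each tool and the annotation were not given in the sources used here. Deposited files give per transcript, per the file headers, the length, effective length, TPM and NumReads, an estimated count of reads. The libraries held about 17922900 to 25520600 estimated reads. Members and lists were chosen with earlier results of these data known. Estimated counts were rounded and tested with edgeR 4.0.16 (R 4.3.3; quasi-likelihood, TMM scaling, breed as only term) over all transcripts with a TPM of 1 in at least 3 libraries, adjusted by Benjamini-Hochberg. Its SE is approximate: the fold change divided by the root of F. Alternatives used DESeq2 1.42.0, limma 3.58.1 and other settings. The edgeR and DESeq2 scripts were tested on simulated data. Shares were compared by exact permutation. Named by identifier are the 5 members highest in TPM, the 3 highest in reads, the 2 of smallest p per direction, the 4 transcripts at the limit, and those extreme in effective length over length (2) or rank difference (2). Gene classes fixed for counting were not used, since 0 identifiers matched a symbol, and small RNA files were not used here. Pooled over transcripts, libraries of a breed differed by far more than counting error. That comparison was not made for single members, of which 92 had a mean of under 10 reads.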

Additional observations from a re-analysis of the deposited data

How the results depend on the processing

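Against 0 members and 9 of all transcripts called by edgeR, DESeq2 called 5 and 428, limma on log2(TPM + 1) 1 and 20, and limma on log2(TPM + 0.1) 2 and 20. The members called by limma were ENSSSCT00000021123.3 with both pseudocounts, which is also among the DESeq2 calls, and ENSSSCT00000021446.3 with 0.1 only. Each met the filter through the libraries of a single breed, so these calls are not counted as support. Leaving out 1 library gave 0 to 35 members and 0 to 8381 transcripts. Total scaling, an offset for effective length, both other filters, member sets of 100 and 400, the limit of 200 bases and counting equal members once each gave 0 members. By the replicate numbers of the titles, deviations of same-numbered Duroc and Large white libraries correlated at -0.01, 0.01 and 0.04. No Duroc library correlated best with its own number. The labels name no batch, so correlations over transcripts that share 3 libraries per breed cannot decide whether same-numbered libraries were handled together. With the replicate block, edgeR called 0 transcripts and 0 members, with a member median of -0.22. The median log2 fold change of the members, -0.12, was -0.047 with total scaling, -0.23 without a filter, -0.42 with 10 reads in 3 libraries (111 members tested), -0.19 and -0.29 with limma at pseudocounts of 1 and 0.1, and -0.27 to -0.055 without 1 library. It was -0.30 for 100 members, 0.025 for 400 and 0.21 at the limit of 200 bases, so its sign depends on the list. The difference in TPM share, 0.671 percentage points, was -0.556 to 1.84 without 1 library. With the 144-base transcript taken out of both the members and the library total it was -0.404, and -0.357 with the total kept. The difference in read share, 0.0470, became -0.00286 with that transcript taken out of both. Effective length over length, with a difference of -0.00790 (Duroc minus Large white), differed by 0.00325 for 400 members, 0.0198 at 200 bases and 0.00529 weighted by reads. The ratio of TPM share to read share, 36.4 in Duroc and 38.0 in Large white, was 13.3 and 13.3 with full length. With the 144-base transcript taken out of the members and the total it was 48.2 and 51.5, and 37.3 and 40.4 with the total kept. The log2 fold change of ENSSSCT00000029974.3 was -0.0043 with DESeq2, -0.0074 with the length offset, -0.10 without a filter, -0.062 with 10 reads, -0.076 without Duroc library 2 and -0.082 without Large white library 1, with -0.082 to 0.113 when leaving out each library; that of ENSSSCT00000071049.1 ran from -0.947 without Duroc library 2 to 0.093 without Duroc library 1. The cause was not tested. Members with few reads limit precision: the median SE was 0.87 under 10 reads and 0.43 from 100 reads.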
